A study of Mus musculus with 12 samples.

Results

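Coding-exon m6A peaks that cover more than 1000 bases of genome were examined in BV2, a mouse cell line of microglial origin, after treatment with the bacterial outer-membrane component LPS (lipopolysaccharide). A peak belonged to the set if the authors annotated it as exonic, their term for coding-exon sequence as distinct from the untranslated regions (UTRs), and if its end minus its start exceeded 1000 bases. By this rule the list of Mettl3 knockout (KO) cells held 6144 such peaks among 41153 peaks, on 3817 genes, and the list of wild-type (WT) cells held 4574 among 36682, on 3087 genes. The 10718 peaks were drawn from 77835 in all and lay on 4556 genes. The labels describe 12 libraries in 4 groups of 3: m6A immunoprecipitation (IP) and input libraries from LPS-treated KO cells, and IP and input libraries from LPS-treated WT cells. LPS was shared by all 4 groups. The sources used here do not give how the knockout was made or whether the KO cells are a single clone. The measurements are 2 deposited peak lists, 1 per genotype. They hold no value per library, so no spread between replicates could be measured, no test between genotypes was possible, and the depth behind each value is unknown. Mettl3 itself had 6 KO and 3 WT peaks, all in UTRs and none in the set. Its strongest peak had the same ends in both lists and a log2 of 2.07 in KO cells and 1.57 in WT cells, but an enrichment over input does not measure the amount of Mettl3 RNA, and the labels do not say which exons were deleted, so this does not check the knockout. All enrichments below are log2 values of IP over input that the authors deposited for each peak, and all adjusted p values are also the authors' own. Intervals are 95% intervals that cover the counting of peaks only.

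N6-methyladenosine (m6A) is placed on messenger RNA in the nucleus by a complex whose catalytic subunit is METTL3, with METTL14 and WTAP as core partners. The mark is known to gather in long internal exons, around stop codons and in 3′ UTRs. Exon junction complexes, which splicing deposits just upstream of exon boundaries, keep the writer away from nearby sequence, so short internal coding exons are known to carry little m6A. A methylated-RNA pull-down from polyadenylated RNA recovers fragments of largely spliced transcripts. A peak that runs over several exons of the transcript therefore takes in the introns between them when its ends are written as genome positions.

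The lists give only the outer ends of a peak and no exon blocks, so the presence of introns inside these spans was checked indirectly. Short peaks had lengths on a regular 25-base step. Of peaks up to 300 bases, 88.7% in the KO list and 88.6% in the WT list had a length that is a multiple of 25. Coding-exon peaks above 300 and up to 1000 bases did so in 49.3% of KO and 53.9% of WT cases. Among the coding-exon peaks above 1000 bases the share was 5.32% (4.79 to 5.91) in the KO list and 6.54% (5.86 to 7.29) in the WT list, a little above the 4% that lengths with no step would give. The 3′ UTR peaks above 1000 bases stood between, at 16.5% in the KO list and 17.4% in the WT list. By this measure few of the long coding-exon spans kept the step of the short peaks.

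**Figure D1:**
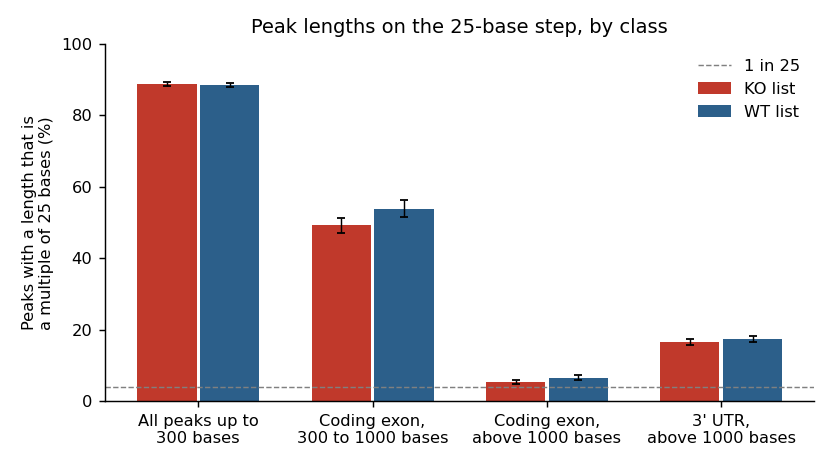
Bars give the percentage of peaks whose length is a multiple of 25 bases, for 4 classes of peak, with the KO list left of the WT list in each pair; error bars are 95% Wilson intervals and the dashed line marks 4%. The share is near 89% for peaks up to 300 bases and about 5% to 7% for coding-exon peaks above 1000 bases in both lists.

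The spans also held whole microRNA hairpins, which are short stem-loops cut from longer transcripts and are often encoded in introns. Of 1005 hairpins in the RefSeq table of build GRCm38.p6, 37 lay entirely inside a long coding-exon peak of the KO list and 22 inside one of the WT list, with 12 in both. The strand matched that of the peak for 35 KO and 19 WT hairpins. Well-known intronic examples are shown by their mature RNAs, because they make the non-coding content of these spans visible. Capitals mark the seed, bases 2 to 8, through which a microRNA recognises its targets, and the sequences are those of RefSeq, GRCm38.p6.
let-7f-5p: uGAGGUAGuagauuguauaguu
miR-98-5p: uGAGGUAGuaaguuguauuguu
miR-107-3p: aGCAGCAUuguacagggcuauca
miR-761: gCAGCAGGgugaaacugacaca
miR-326-3p: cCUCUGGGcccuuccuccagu
miR-423-5p: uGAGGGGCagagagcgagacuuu

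The hairpins of let-7f-2 and miR-98, whose 5p arms share the seed GAGGUAG, sat together inside a KO peak of 4060 bases on Huwe1 (chrX:151910220-151914279, plus strand), a giant ubiquitin ligase gene, with a log2 of 0.38. The miR-107 hairpin lay in a KO peak of 9450 bases on the pantothenate kinase gene Pank1 (chr19:34812340-34821789, minus strand) with a log2 of 0.52, and miR-326 in a KO peak of 33284 bases on the β-arrestin gene Arrb1 with a log2 of 0.91. The miR-423 hairpin lay in a WT peak of 23598 bases on Nsrp1, a splicing regulator gene, with a log2 of 0.84. The miR-761 hairpin was inside a peak of Nrd1, a metalloendopeptidase gene, in both lists, with a log2 of 0.69 over 14928 bases in KO cells and 0.85 over 11339 bases in WT cells. These values describe the host-gene peaks. The microRNAs themselves were not measured by this assay. Complete RefSeq genes other than the host also fitted inside 272 KO peaks (4.43%) and 208 WT peaks (4.55%) of the set.

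The spans covered a wide range that was nearly the same in both lists. The median was 4168 bases in the KO list (quartiles 2158 and 8843) and 4135 bases in the WT list (quartiles 2101 and 8915). Spans above 10000 bases made up 21.8% of the KO and 21.9% of the WT set. The widest KO peaks lay on Fat3, an atypical cadherin gene (346851 bases, log2 1.59), Prkce, the gene of protein kinase C epsilon (312664 bases, 0.66), the F-box gene Fbxl17 (296516 bases, 0.55), the splicing-related gene Rsrc1 (266778 bases, 0.87) and the ubiquitin-conjugating enzyme gene Ube2e2 (247824 bases, 0.74). The widest WT peaks lay on Prkce (310405 bases, 0.95), Rsrc1 (266778 bases, 0.74), the Notch coactivator gene Maml3 (247377 bases, 0.72), Tmtc2 (232254 bases, 2.11) and the kinase-anchoring gene Akap6 (214482 bases, 2.21). The Rsrc1 peak had the same start and end in both lists (chr3:67085049-67351826, plus strand). Wide peaks were a little stronger than narrow ones: the median log2 was 0.65 above 32000 bases against 0.53 between 1000 and 2000 bases in KO cells, and 0.85 against 0.65 in WT cells. Members on the 25-base step were also stronger, with a median log2 of 0.68 against 0.56 off the step in the KO list and 1.03 against 0.68 in the WT list.

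Peaks on either side of the limit of 1000 bases were compared. Coding-exon peaks of 801 to 1000 bases had a median log2 of 0.54 in the KO list (402 peaks) and 0.68 in the WT list (286 peaks), and those of 1001 to 1200 bases had 0.53 in the KO list (345 peaks) and 0.65 in the WT list (265 peaks). The share on the 25-base step was 22.1% in the KO list and 26.2% in the WT list from 801 to 1000 bases, and 12.5% in the KO list and 17.7% in the WT list from 1001 to 1200 bases. Just inside the limit were the KO peaks on the m6A reader gene Hnrnpa2b1 (1001 bases, 0.93) and the signalling adaptor gene Traf1 (1001 bases, 0.56), and the WT peaks on Cog6, a Golgi-tethering gene (1001 bases, 0.49), and Fmr1 (1002 bases, 0.51). Just outside, at 1000 bases, were the KO peaks on the kinase gene Akt2 (0.49) and the cullin gene Cul7 (0.70), and the WT peaks on the ankyrin gene Ank2 (1.52) and the carnitine transferase gene Cpt2 (0.77).

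Along the gene the long coding-exon peaks lay in the interior, which follows in part from a set that leaves out UTR peaks. The midpoint stood at a median of 60.9% of gene length in the KO list (quartiles 39.1% and 79.5%) and 60.5% in the WT list (quartiles 38.3% and 79.0%). Only 20 KO (0.33%) and 24 WT members (0.52%) began at the listed start of their gene, and 15 KO (0.24%) and 16 WT members (0.35%) reached its end. Coding-exon peaks up to 1000 bases did so about as rarely. They began at the gene start in 0.22% of KO and 0.22% of WT cases and reached its end in 0.53% of KO and 0.63% of WT cases. Of 3′ UTR peaks, 28.1% in the KO list and 29.5% in the WT list reached the gene end, and 23.5% of KO and 24.1% of WT 5′ UTR peaks reached the gene start. In bins of 10% of gene length, the share of members grew up to the bin from 80% to 90%, which held 15.4% in the KO list and 15.0% in the WT list, and the last bin held 8.77% in the KO list and 8.53% in the WT list. Short coding-exon peaks, up to 1000 bases, followed almost the same course but kept 13.9% of KO and 13.8% of WT peaks in the last bin. The midpoint of a wide peak inside its gene cannot lie close to the gene end, and this was not corrected for. Counting each gene once, the genes with a member had a median length of 42892 bases in the KO list and 45138 bases in the WT list. It was 27795 bases in the KO list and 28747 bases in the WT list for genes with a short coding-exon peak, 23927 bases in the KO list and 23900 bases in the WT list for genes with a 3′ UTR peak, and 19227 bases over all genes with a KO peak and 19068 bases over all genes with a WT peak. A member covered a median of 8.98% of its gene in the KO list and 8.84% in the WT list.

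**Figure D2:**
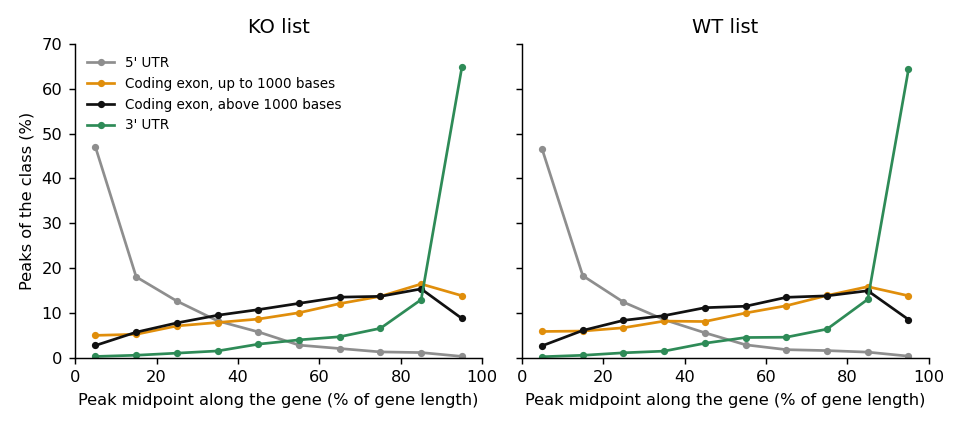
The percentage of peaks of each annotation class is plotted against the peak midpoint in bins of 10% of gene length, with the KO list on the left and the WT list on the right. In both lists the coding-exon curves climb slowly to about 15% or 16% in the bin before the last, whereas 64.8% of KO and 64.3% of WT 3′ UTR peaks lie in the last bin and 47.0% of KO and 46.6% of WT 5′ UTR peaks in the first.

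The long coding-exon peaks were more numerous and weaker in the KO list. Their number was 1.34 times that of the WT list, close to the ratio of 1.33 for short coding-exon peaks and above 1.09 for 3′ UTR peaks and 1.12 for all peaks. They formed 14.9% (14.6 to 15.3) of the KO list and 12.5% (12.1 to 12.8) of the WT list. Long spans made up the same part of all coding-exon peaks in both, 59.5% in the KO list and 59.2% in the WT list. The median log2 was 0.56 (0.55 to 0.56) in the KO list and 0.68 (0.68 to 0.69) in the WT list, below the medians of all peaks, 0.70 in the KO list and 0.83 in the WT list. Short coding-exon peaks were slightly lower still, with a median of 0.54 in the KO list and 0.65 in the WT list. Enrichment of 4-fold or more was reached by 75 KO members (1.22%) and 264 WT members (5.77%), a ratio of 0.284, against a ratio of 0.334 over 3′ UTR peaks, 0.376 over all peaks and 0.592 over short coding-exon peaks. The KO list thus held more members in all and fewer at the strong end. Each list carries its own pull-down efficiency and scaling, and their part in these differences was not tested.

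The strongest KO members were on Gapdhs, the sperm form of a glycolytic enzyme gene (log2 4.79, adjusted p 1.64e-10), the brain kinase gene Lmtk3 (3.81, 5.08e-91), the chromatin-reader gene Morf4l1 (3.79, 3.19e-111), Ccdc157 (3.56, 2.74e-31) and Bahcc1 (3.39, 1.13e-14). The integrin gene Itgb4 (3.39), Fnip2, a folliculin partner gene (3.32), the deubiquitinase gene Usp47 (3.05), the cytoskeletal gene Epb41l1 (3.03) and the nuclease gene Dnase1 (2.99) followed. Of these 10 genes, 6 also held a member in the WT list, and Bahcc1 and Itgb4 had no WT peak of any kind. Lmtk3 had 3.81 in KO cells and 4.37 in WT cells, over 6029 bases in KO cells and 6004 bases in WT cells that share their end. The Morf4l1 peak had the same ends in both lists (chr9:90109949-90114389, minus strand), with 3.79 in KO cells and 4.24 in WT cells. For Usp47 the ends were also the same (chr7:112092553-112093677, plus strand), with 3.05 in KO cells and 4.19 in WT cells.

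The strongest WT members were on genes of secreted liver proteins and a liver enzyme. Ttr, which encodes the thyroid hormone carrier transthyretin, had a log2 of 7.99 (adjusted p 2.4e-11), Cyp2e1, a hepatic cytochrome P450 gene, 7.51 (3.83e-10), and Gc, the gene of vitamin D-binding protein, 7.42 (6.69e-10). None of these genes had a KO peak. Of 30 hepatocyte genes listed after this was seen, 4 had a KO peak and 11 had a WT peak. The 7 with a WT peak only were Alb, Ttr, Apoa1, Apoa2, Cyp2e1, Gc and Hpx, led by albumin with a log2 of 8.45 at a 3′ UTR peak. There was no peak in either list for 19 of the 30, among them Apob, Fga, Serpina1a and the liver transcription factor gene Hnf4a. These values are enrichments over input and do not measure the amount of RNA, and where this RNA came from was not tested. Without the 30 genes the set held 6143 KO and 4570 WT members, and the median log2 stayed at 0.56 in the KO list and 0.68 in the WT list. Next in the WT list came Cped1 (6.18), Plekha6 (5.90), Gm12185 (5.09), Ttc23 (5.05), Mfap1a, a spliceosome component gene (4.77), 9130230L23Rik (4.63) and Lmtk3 (4.37). Plekha6, Ttc23 and 9130230L23Rik had no KO peak of any kind, and Cped1 had 2 KO peaks outside the set.

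Most members had a counterpart in the other list. At least 1 base on the same strand was shared with a WT peak by 63.3% (62.1 to 64.5) of KO members, and with a KO peak by 78.6% (77.3 to 79.7) of WT members. The shares for all peaks were 72.9% in the KO list and 77.2% in the WT list, and for 3′ UTR peaks above 1000 bases 90.4% in the KO list and 93.9% in the WT list. Short coding-exon peaks had the lower shares of 55.5% in the KO list and 64.8% in the WT list. Members without a counterpart were weaker: their median log2 was 0.50 against 0.61 in the KO list and 0.64 against 0.70 in the WT list. The counterpart sharing most bases was itself a member for 2820 KO and 2812 WT peaks. It was a 3′ UTR peak for 449 KO and 262 WT members, and a short coding-exon peak for 363 KO and 277 WT members, so the class of a stretch of RNA could differ between the lists. Of 2255 KO members without a counterpart, 48 (2.13%) lay on a gene with no WT peak, and of 981 WT members, 78 (7.95%) lay on a gene with no KO peak. The same shares over all peaks on a gene and without a counterpart were 7.41% in the KO list and 15.9% in the WT list. Genes with a member in both lists numbered 2348, against 1469 with a KO member only and 739 with a WT member only. Genes with a peak of any class numbered 12323 in both lists, 708 in the KO list only and 1047 in the WT list only. Just 45 genes with a KO member had no WT peak of any class, and 70 genes with a WT member had no KO peak.

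KO and WT members of the same gene were then matched by their shared bases, which gave 2713 pairs. The median log2 of the paired members was 0.63 in KO cells and 0.70 in WT cells, and the median difference, KO minus WT, was -0.11 (-0.11 to -0.10). The KO value was the lower one in 1998 pairs (73.6%). It was lower by 2-fold or more in 70 pairs (2.58%), against 5.34% of all 26356 pairs of peaks matched in the same way. It was higher by 2-fold or more in 1 pair (0.0369%), on the predicted gene Gm20422 (log2 2.30 in KO cells and 0.90 in WT cells), against 0.285% of all pairs. By strongest member of the gene, Gm20422 differed by -0.32. All pairs of peaks shifted by a median of -0.12, so relative to that shift the paired members stood at 0.02, with the sign turned. Paired 3′ UTR peaks above 1000 bases differed by a median of -0.47 (4887 pairs) and paired short coding-exon peaks by -0.10 (1137 pairs). In the 117 pairs with identical ends in both lists the median was -0.11, and 94 of them were lower in KO cells.

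**Figure D3:**
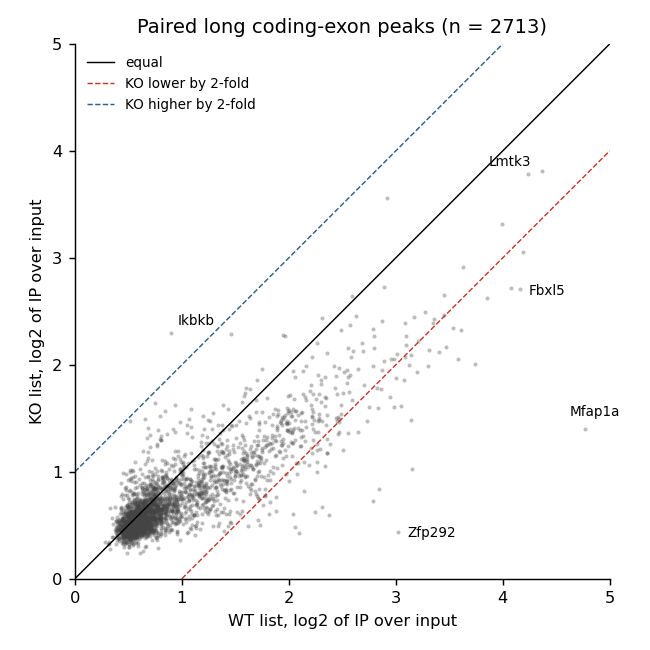
Each point is a pair of long coding-exon peaks of the same gene that share bases, with the log2 of IP over input in the KO list on the vertical axis and in the WT list on the horizontal axis. Most of the 2713 points lie below the line of equality, 70 lie at or below the dashed line of a 2-fold lower KO value, and the distance from equality is larger for strong pairs.

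The difference grew with the strength of the pair. Both peaks of a pair had to be listed, and no member had a log2 below 0.21 in the KO list or 0.28 in the WT list. Pairs of low mean therefore had little room to differ, and the part of this limit in the trend was not tested. At a mean log2 of up to 0.5 the median difference was -0.05 (348 pairs), and between 0.5 and 0.75, where 1275 pairs lay, it was -0.06. It was -0.40 between 1 and 1.5 (386 pairs), -0.59 between 1.5 and 2 (179 pairs), -0.77 between 2 and 3 (87 pairs) and -0.80 above 3 (11 pairs). At a mean between 2 and 3, 95.4% of the pairs were lower in KO cells. The 3′ UTR peaks above 1000 bases moved over the same range, from -0.04 in the weakest to -0.94 in the strongest pairs, and had -0.71 between 1.5 and 2. Strong pairs were the smaller part of the set: 663 of the 2713 had a mean above 1, against 3274 of the 4887 pairs of 3′ UTR peaks. Among pairs with a mean of at least 1, those with neither span on the 25-base step had a median of -0.49 (571 pairs) and those with both on it -0.44 (54 pairs).

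**Figure D4:**
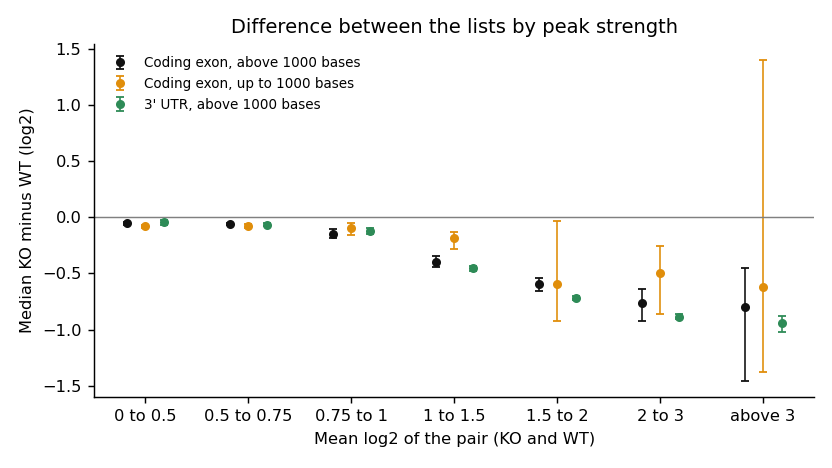
Points give the median KO minus WT difference in log2 of IP over input for pairs binned by the mean log2 of both lists, for long coding-exon peaks, short coding-exon peaks and 3′ UTR peaks above 1000 bases; bars are 95% binomial intervals of the median. Long coding-exon pairs go from -0.05 at a mean up to 0.5 to -0.80 above 3. Pairs of low mean have little room to differ, because both peaks had to be listed.

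The largest negative difference was on Mfap1a, where a peak of 5248 bases had a log2 of 1.40 in KO cells and a peak of 7382 bases 4.77 in WT cells, a difference of -3.37. Zfp292, a zinc-finger transcription factor gene, had 0.44 in KO cells and 3.02 in WT cells, but those peaks shared only 36.1% of the longer span. By strongest member of the gene, Zfp292 differed by -1.03. Several other large differences came from nearly the same stretch. The olfactory receptor gene Olfr132 had 0.72 in KO cells and 2.79 in WT cells, the Polycomb-related gene Scml4 0.84 in KO cells and 2.84 in WT cells, and Rwdd3, a sumoylation enhancer gene, 1.49 in KO cells and 3.14 in WT cells, each over more than 90% of the longer span. By strongest peak of any class, Scml4 differed by -0.63, Olfr132 by -2.06 and Rwdd3 by -1.65. The ubiquitin ligase gene Trim2 had 0.67 in KO cells and 2.31 in WT cells over 10762 bases in both lists. The flippase gene Atp9a (-1.78), Zfp964 (-1.73) and Tex10 (-1.68) completed the named genes at this end, together with 2210408I21Rik (-2.12). Of the longer span, these pairs shared 24.0% on Atp9a, 75.8% on Zfp964, 33.9% on Tex10 and 33.9% on 2210408I21Rik. By strongest member of the gene, Tex10 differed by -0.77.

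At the other end the differences were smaller. Fgd6 had 1.48 in KO cells and 0.52 in WT cells, although the KO peak of 79855 bases shared 3.55% of its length with the WT peak. Mgat4a, a glycosyltransferase gene, had 1.64 in KO cells and 0.75 in WT cells over nearly identical spans of 34799 bases in KO cells and 34749 bases in WT cells. Gpr137b came next and differed by 0.84, over peaks that shared 65.2% of the longer span. Ikbkb encodes IKKβ, the kinase that frees NF-κB downstream of the LPS receptor. Its peak had identical ends in both lists (chr8:22690909-22691995, minus strand, 1087 bases), with a log2 of 2.29 in KO cells (adjusted p 3.74e-07) and 1.46 in WT cells (9.24e-05). By the mean over all members of the gene, Ikbkb differed by -0.43. Eya4 (0.73), Caprin2 (0.73), Tbc1d2 (0.72), the axonemal dynein gene Dnah6 (0.69) and Mospd2 (0.65) followed by KO minus WT difference. The Tbc1d2 pair shared 30.9% of the longer span. By strongest member of the gene, Dnah6 differed by -0.25.

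With each gene represented by its strongest member in each list, the median KO minus WT difference over 2348 genes was -0.11 (-0.12 to -0.10), and 1697 genes were lower in KO cells. The KO value was lower by 2-fold or more for 82 genes (3.49%) and higher by 2-fold or more for 8 (0.341%). Over all 12323 genes, taken by their strongest peak of any kind, the corresponding shares were 9.54% and 0.714%, and the median was -0.25. The per-gene median of the members minus that median was 0.14, but this sets coding-exon members against strongest peaks of any kind. When the genes with members in both lists were taken by their strongest peak of any class, their median was -0.31, so the coding-exon peaks of these genes differed less between the lists than their strongest peaks did.

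Members clustered on genes of giant proteins. Dst, which encodes the cytolinker dystonin, held 19 members among 44 KO peaks and 11 among 26 WT peaks. Syne1, the gene of the nuclear-envelope protein nesprin-1, held 16 in the KO list and 9 in the WT list. The microtubule-actin crosslinker gene Macf1 held 13 in KO cells and 7 in WT cells, the kinase anchor gene Akap9 10 in KO cells and 6 in WT cells, and the histone methyltransferase gene Kmt2c 10 in KO cells and 8 in WT cells. Utrn, the dystrophin relative, had 8 KO and 9 WT members, and the spectrin gene Sptan1 7 KO and 8 WT members. A single member was nevertheless the rule: 2467 of 3817 genes in the KO list and 2127 of 3087 in the WT list had just 1.

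On Dst (chr1:33908225-34308661, plus strand) the KO members together covered 25.2% of the gene and the WT members 9.65%. Log2 values ranged from 0.42 to 1.24 over the KO members, with a median of 0.54, and from 0.44 to 2.24 over the WT members, with a median of 0.56. All 11 WT members shared bases with a KO peak, and 14 of the 19 KO members with a WT peak. The strongest WT member (chr1:34179125-34180649, log2 2.24) lay where the KO list had short coding-exon peaks instead, the strongest at 1.87. On Syne1 the strongest members overlapped, with 1.71 over 22369 bases in KO cells and 1.99 over 25412 bases in WT cells. The remaining Syne1 members ranged from 0.42 to 1.29 in KO cells and from 0.51 to 1.62 in WT cells.

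**Figure D5:**
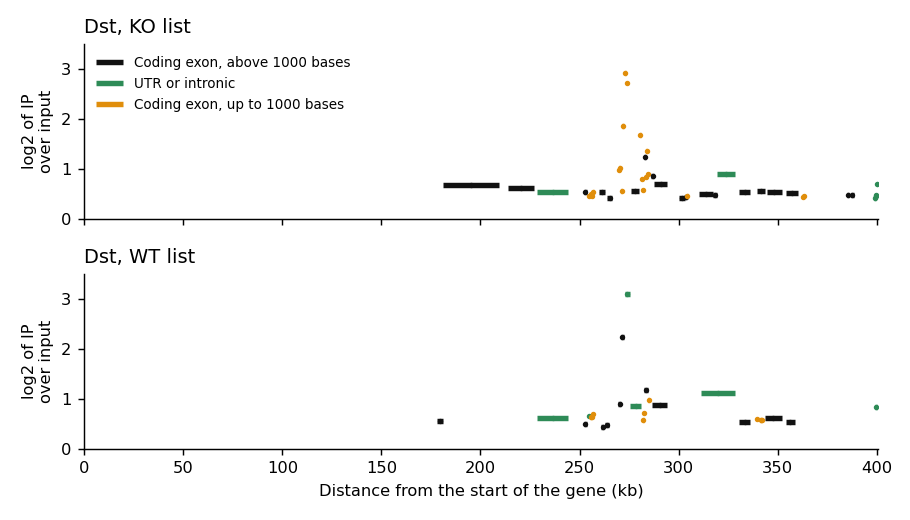
Every peak of Dst is drawn at its distance from the gene start in kb, with its log2 of IP over input on the vertical axis, for the KO list above and the WT list below. Long coding-exon peaks (19 in KO cells, 11 in WT cells) are spread over the later part of the gene at values mostly below 1, and the highest values of both lists lie close together, at a short coding-exon peak in KO cells (2.92) and a UTR peak in WT cells (3.10).

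The m6A machinery had members on part of its genes. A gene's value here and in the gene lists below is that of its strongest member in each list. The strongest members need not be the same stretch in both lists. Batf, the transcription factor gene that the series text singles out, had no KO peak and 2 UTR peaks in WT cells, and no member. Of 13 writer genes, all with a peak in both lists, 4 held a KO member (30.8%) and 2 a WT member (15.4%), against 29.3% of all genes with a KO peak and 23.1% of all genes with a WT peak. Wtap had 1.40 in KO cells and 2.01 in WT cells, and Mettl5, a ribosomal RNA methyltransferase gene, 0.42 in KO cells and 0.77 in WT cells. Virma (1.19) and Mettl14 (0.54) had members in the KO list only. The demethylase gene Fto had a member of 50540 bases in each list, with 0.96 in KO cells and 1.74 in WT cells. Of 15 reader genes, 8 held a KO member (57.1% of those with a KO peak) and 6 a WT member (42.9% of those with a WT peak). The nuclear reader gene Ythdc1 had 1.48 in KO cells and 2.73 in WT cells, the only reader past 2-fold by strongest member, and by the mean over its members the difference was -0.37. Prrc2a had 1.47 in KO cells and 1.78 in WT cells, Igf2bp3 0.45 in KO cells and 1.28 in WT cells, Fmr1 0.55 in KO cells and 0.76 in WT cells, Elavl1 0.68 in KO cells and 0.76 in WT cells, and Hnrnpa2b1 0.93 in KO cells and 0.70 in WT cells. Igf2bp2 (0.45) and Eif3a (0.43) had KO members only, but 5 and 2 WT peaks outside the set.

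Genes of the LPS response were counted by list. Of 34 genes of the TLR4 and NF-κB pathway, 32 had a peak in the KO list and 33 in the WT list, and 13 held a KO member (40.6% of those with a KO peak) and 11 a WT member (33.3% of those with a WT peak). Of the 9 with members in both, 5 were lower and 4 higher in KO cells, none by 2-fold, with a median difference of -0.08 against -0.11 over all genes with members in both lists. Tnfaip3, the gene of the NF-κB inhibitor A20, had 1.57 in KO cells and 2.00 in WT cells, the kinase gene Ikbke 0.65 in KO cells and 1.11 in WT cells, and Irak2 0.57 in KO cells and 0.84 in WT cells. The KO and WT peaks on Ikbke do not overlap. Of 30 LPS-induced cytokines and mediators, 21 had a KO peak and 23 a WT peak, and 5 held a KO member (23.8%) and 1 a WT member (4.35%). The corresponding shares over all genes with a peak were 29.3% in the KO list and 23.1% in the WT list. These were the growth factor gene Csf1 (1.50), the costimulator genes Cd86 (0.80), Cd80 (0.52) and Cd40 (0.48) and the nitric oxide synthase gene Nos2 (0.50) in the KO list, and the adhesion gene Icam1 (0.57) in the WT list.

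Inflammasome genes, which sense intracellular danger and activate caspase-1, were counted next. Of 21 inflammasome and pyroptosis genes, 10 held a KO member (55.6% of those with a KO peak) and 10 a WT member (55.6% of those with a WT peak). Over all genes with a peak the shares were 29.3% in the KO list and 23.1% in the WT list, and gene length was not held constant. Of the 8 with both, 7 were lower in KO cells, with a median of -0.35 and none past 2-fold, beside 1697 of the 2348 genes with members in both lists. Nlrp1a had 1.04 in KO cells and 1.85 in WT cells, Naip2 1.15 in KO cells and 1.71 in WT cells, and Nlrc5, a regulator gene of MHC class I, 1.01 in KO cells and 1.56 in WT cells. Nlrp1b was higher in KO cells, with 2.16 in KO cells and 1.60 in WT cells, but these peaks do not overlap. On the WT stretch the KO list had 1.17, a difference of -0.42, and by strongest peak of any class the gene differed by -1.01. Nlrp3, the sensor gene of the best-known inflammasome, had a WT member of 12667 bases (1.43) and no KO member, but 2 peaks of any class in each list. The Nlrp1 and Naip genes each belong to a family of close paralogs, and reads may be split between them. Of 36 interferon-response genes, 15 held a KO member (48.4% of those with a KO peak) and 11 a WT member (34.4% of those with a WT peak), and 8 of the 10 with both were lower in KO cells, with a median of -0.11. The ADP-ribosyltransferase gene Parp14 had 0.86 in KO cells and 1.32 in WT cells, Oas3 0.59 in KO cells and 0.88 in WT cells, Mx2 1.03 in KO cells and 0.61 in WT cells, and Stat2 a member in the KO list only (0.73). Stat2 had 6 WT peaks outside the set. Of 20 genes of AP-1, BATF and their partner factors, 2 held a KO member (11.1% of those with a KO peak) and 4 a WT member (21.1% of those with a WT peak). Batf2 had 1.21 in KO cells and 2.51 in WT cells, Irf8 0.53 in KO cells and 0.57 in WT cells, and Maf (2.78) and Fosl1 (0.57) had WT members only. Outside the set, Maf had 2 KO peaks and Fosl1 had 4 KO peaks.

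Genes of chromatin regulators and of giant ubiquitin ligases and kinases carried long coding-exon peaks most often among the lists examined. Of 58 chromatin regulator genes, 56 had a peak in each list, and 52 held a KO member (92.9% of those with a KO peak) and 48 a WT member (85.7% of those with a WT peak). Over all genes with a peak the shares were 29.3% in the KO list and 23.1% in the WT list. The list of giant ubiquitin ligases and PIKK-family kinases also holds deubiquitinase genes and a lipid-transfer gene. It had members on 24 (92.3%) of its 26 genes in the KO list and 23 (88.5%) in the WT list. Both lists are made of long genes, and length was not held constant. Of the 47 chromatin genes with members in both lists, 38 were lower in KO cells and 9 higher, none by 2-fold, with a median of -0.27. The H3K4 methyltransferase gene Kmt2d had 2.45 in KO cells and 2.63 in WT cells, Kmt2b 1.52 in KO cells and 2.23 in WT cells, the remodeller gene Chd8 1.30 in KO cells and 2.22 in WT cells, and the SWI/SNF subunit gene Arid2 1.69 in KO cells and 2.35 in WT cells. The KO and WT peaks on Kmt2b do not overlap. Chd3, a NuRD remodeller gene, had 2.44 in KO cells and 2.32 in WT cells. Of the 23 genes of the ligase and kinase list with members in both, 17 were lower in KO cells, with a median of -0.10. The deubiquitinase gene Usp34 had 1.42 in KO cells and 2.16 in WT cells, the lipid-transfer gene Vps13d 1.72 in KO cells and 2.22 in WT cells, and the interferon-linked ligase gene Rnf213 1.47 in KO cells and 1.92 in WT cells over 5996 bases in each.

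Members were also counted on other genes of large proteins and of RNA metabolism. Shares are of the genes with a peak in that genotype, beside 29.3% of all genes in the KO list and 23.1% in the WT list. Gene length was not held constant. Of 34 cytoskeletal and scaffold genes, 26 held a KO member (81.25%) and 20 a WT member (60.6%), in all 137 KO and 84 WT peaks. Of the 20 with both, 12 were lower and 8 higher in KO cells, with a median of -0.04. Plec, the gene of plectin, had 1.39 in KO cells and 1.72 in WT cells. Of 25 Mediator, RNA polymerase II and elongation genes, 16 held a KO member (64%) and 18 a WT member (72%). Of the 15 with both, 11 were lower in KO cells, with a median of -0.11. Cdk13 had 1.24 over 54327 bases in KO cells and 2.12 over 54827 bases in WT cells, and Med13 1.47 in KO cells and 1.98 in WT cells. Of 45 RNA decay genes, 21 held a KO member (46.7%) and 18 a WT member (40%). Of the 14 with both, 10 were lower in KO cells, with a median of -0.10. The microRNA-processing gene Dicer1 had 1.45 in KO cells and 2.03 in WT cells, in peaks that do not overlap. Tnrc6b, which encodes a silencing partner of Argonaute, had 2.84 over 121750 bases in KO cells and 1.67 over another stretch of 6336 bases in WT cells, a difference of 1.17. On that WT stretch the KO list had a member of 7236 bases with 1.29. Of 41 splicing factor genes, 21 held a KO member (51.2%) and 17 a WT member (41.5%). Of the 14 with both, 11 were lower in KO cells, with a median of -0.08. Hnrnpm had 1.03 in KO cells and 1.67 in WT cells, and Son 1.02 in KO cells and 1.45 in WT cells.

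Lists of housekeeping genes were counted in the same way. Shares are of the genes with a peak in that genotype. They stand beside 29.3% of all genes with a KO peak and 23.1% of all genes with a WT peak. Gene length was not held constant. Of 32 translation factor genes, 16 held a KO member (50%) and 8 a WT member (25%). Their median member log2 was 0.46 in KO cells and 0.56 in WT cells. Eif5b had 1.09 in KO cells and 1.20 in WT cells. For 33 proteasome genes the counts were 12 in the KO list (36.4%) and 4 in the WT list (12.1%). For 26 chaperone and folding genes they were 13 in the KO list (50%) and 7 in the WT list (26.9%). Of 22 aminoacyl-tRNA synthetase genes, 14 held a KO member (66.7%) and 9 a WT member (42.9%). Of 21 glycolysis genes, 9 held a KO member (47.4%) and 5 a WT member (26.3%). Of 36 replication and cell-cycle genes, 16 held a KO member (44.4%) and 9 a WT member (25%). Pole, a replicative polymerase gene, had 4 KO members, up to 1.98, and no WT member. Cytosolic ribosomal protein genes numbered 77, of which 75 had a KO peak and 74 a WT peak. A KO member was held by 6 of them (8%) and a WT member by 4 (5.41%). The 2 with both, Rpl5 and Rpl6, differed by 0.06 and 0.04. Differences between the lists were near 0 for glycolysis genes (median 0.0016 over 4 genes) and proteasome genes (0.0033 over 4), and -0.04 for translation factors (8 genes). Among 30 lysosome and phagocytosis genes, 7 held a KO member (25%) and 5 a WT member (18.5%). These were led by the scavenger receptor gene Msr1 with 1.03 in KO cells and 1.59 in WT cells over 10127 bases in each.

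The cell type was checked by peaks on marker genes. All 12 microglia and macrophage markers had a peak in both lists, and 3 of them held a KO member and 1 a WT member: Ptprc (0.76) and Adgre1 (0.41) in the KO list only, and Itgam with 0.40 in KO cells and 0.52 in WT cells. Of 12 neuronal and neuroblastoma markers, 1 had a peak in each list and none held a member.

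Some genes carried a long coding-exon peak in a list and no peak of any kind in the other. There were 45 such genes in the KO list (1.18% of genes with a KO member) and 70 in the WT list (2.27% of genes with a WT member). Over all genes with a peak, 5.43% in the KO list and 7.83% in the WT list had none in the other. The KO genes were led by Bahcc1 (3.39) and Itgb4 (3.39), followed by the radial-spoke gene Rsph3b (2.54), the T-cell adhesion gene Cd2 (2.05), Ism2 (1.86), Zfp773 (1.72), the MHC class I gene H2-Q5 (1.49), the ion channel gene Trpm6 (1.34), the lipoxygenase gene Alox15 (1.27) and Amt (1.26). The WT genes reached far higher values. After Ttr, Cyp2e1 and Gc came Plekha6 (5.90), Ttc23 (5.05), 9130230L23Rik (4.63), Dcst1 (3.97), the transporter gene Slc4a11 (3.90), Zfp811 (3.43) and Klhl10 (3.13). H2-Q5 has near-identical paralogs among the MHC genes, so its reads may be shared with them.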

How the data were processed

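The data are 2 peak lists, 1 per genotype, from 12 libraries of BV2 cells (3 IP and 3 input libraries per genotype). Each row is a peak with its region, its gene and, per the file headers, a log2 fold of IP over input. The p-value and adjusted p-value columns are also the authors'. Per the submitters' processing notes, the authors' tools were HISAT2, StringTie, HOMER, edgeR, fastp and FastQC, without roles or versions. The sources used here give no peak caller, no genome build and no word on pooling of replicates. The labels' protocol text names neuroblastoma cells where the sample labels name BV2.

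Peak starts count from 0, so 1 was added for printing. All 3797 KO and 3071 WT genes of the set found by symbol in RefSeq GRCm38.p6 lay at their RefSeq position. Members were deposited peaks annotated exonic with a span above 1000 bases. Shares have Wilson intervals and medians binomial intervals. KO and WT members of the same gene and strand were paired 1 to 1, most shared bases first, and differences of at least 1 in log2 (2-fold) were counted. All adjusted p-values are the deposited ones, and no test was run here. The members and the 24 gene lists were chosen with earlier results of these data known. Genes are named by a rule: in each list the 10 strongest, the 5 widest, the 5 genes with most members and the 10 strongest of genes with no peak in the other list, the 10 largest differences each way, peaks next to 1000 bases, Mettl3, Batf, all m6A genes with a member, and up to 4 genes per list by strongest member. Any other gene was picked with its value in view, and part of the genes within the rule are not reported here. Alternatives were stricter adjusted p or fold limits, other spans, a 50% reciprocal overlap, strand ignored, identical ends, other gene summaries, centring, and, added after seeing the data, leaving out spans on the 25-base step or hepatocyte genes. Tables were computed in pandas 2.3.3 and SciPy 1.17.1 under Python 3.11.15 (numpy 2.4.6), figures were drawn in matplotlib 3.10.9, and the pairing was tested on simulated data.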

Additional observations from a re-analysis of the deposited data

How the results depend on the processing

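Centring turned the sign of both median differences: relative to the median of all pairs (-0.12) paired members stood at 0.017, and relative to that of all genes (-0.25) the per-gene median stood at 0.14, although this second centring sets members against strongest peaks of any class. With the strongest peak of any class per gene the median was -0.31, and Tnrc6b turned to -1.18. Of 88 named genes, 20 turned sign when centred on all genes, 6 with the mean over members, and 19 with the strongest peak of any class, among them Mgat4a (-1.30), Nlrp1b (-1.01), Fgd6 (-0.64), Tbc1d2 (-0.64) and Mx2 (-0.25). At 4-fold or more, 75 KO and 264 WT members were left (KO over WT 0.284), and with both lists held to that limit 82.7% of KO and 26.9% of WT members were overlapped. Of all peaks, 1618 in the KO list and 4307 in the WT list reached that limit, so the lists to be overlapped differed in size. With a 50% reciprocal overlap 40.2% of KO and 51.9% of WT members were overlapped, with a member as the required partner 46.5% of KO and 62.3% of WT members, and at an adjusted p of at most 0.001 66.2% of KO members. Shares over all peaks at these settings are not given here, so these values do not set the members apart from other peaks. Median log2 values moved little: 0.57 for spans above 2000 bases, 0.61 by strongest member and 0.58 by the mean per gene in the KO list, and 0.70 for spans above 2000 bases, 0.70 at the stricter adjusted p, 0.74 by strongest member and 0.71 by the mean per gene in the WT list. Pairs lower by 2-fold or more made up 3.42% of pairs with identical ends and 1.84% after centring, and 0% of pairs with identical ends were higher by 2-fold or more. The causes were not tested. Counts and shares of blocks and motifs were not run, since the lists hold no exon blocks and no genome sequence was used here. No paired analysis was possible because the lists hold no value per library.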

Other observations

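Complete genes inside the spans were counted on either strand: 311 RefSeq genes lay inside KO members and 251 inside WT members. Hairpins on the strand opposite to the peak were rare, with 2 in the KO list and 3 in the WT list.

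Members at 4-fold or more were on the 25-base step more often than weaker members, in 21.3% (13.6 to 31.9) against 5.12% (4.60 to 5.71) of KO peaks and in 15.5% (11.7 to 20.4) against 5.99% (5.32 to 6.73) of WT peaks. Strong members on the step were short, with a median span of 1625 bases in the KO list and 1725 bases in the WT list, against 4497 bases in the KO list and 6656 bases in the WT list for strong members off the step.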
